A study of Drosophila melanogaster with 6 samples.

Results

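The 10 genes described here encode parts of the muscle sarcomere (Mhc, Prm, sls, Unc-89, Zasp52, Mlp84B and Strn-Mlck), the muscle transcription factor Mef2 and both chains of the basement membrane collagen (Col4a1 and vkg). They were listed by name and are 10 of 17807 genes in the RefSeq table of the dm6 assembly. DNA had been enriched from adult heads of Drosophila melanogaster, genotype WT, with an antibody against 5-methylcytosine and sequenced beside an input library (MeDIP-seq). The lead group (dose label 800um) and the control group (dose label 0um) each held 3 libraries, and all libraries carried the label F3. The sources used here state neither the age and sex of the flies nor which generation was exposed.

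A sarcomere is the contractile unit of striated muscle, in which myosin thick filaments slide along actin thin filaments anchored at the Z disc. Titin-like giants tie thick filaments to the Z disc, and Mef2 switches on muscle structural genes during differentiation. Collagen IV, made in the fly mainly by the fat body and hemocytes, forms the network of the basement membrane that lines muscles, nerves and other tissues. The head holds muscle, fat body, neurons, glia and other cells, so a peak in whole-head DNA cannot be assigned to any of them.

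A gene was counted as marked in a library if a peak overlapped its span or 1 kb on either side by at least 1 bp. By that measure, 6 of the 10 genes were marked in at least 1 library, where 12.2% of all genes were. These were sls, Zasp52, Mhc, Mef2, Col4a1 and Strn-Mlck. The other 4 (vkg, Unc-89, Mlp84B and Prm) had no peak in any library. Over all genes the marked share rose from 5.62% under 5 kb to 70.0% at 20 kb or longer. Of the 10 genes, 5 were longer than 20 kb. The 10 were also chosen with earlier results of these data known. Both sls and Zasp52 were marked in all 6 libraries, as were 3.69% of all genes. No member was marked in all lead and no control libraries, or the reverse, and over all genes 0.0618% and 0.00562% were.

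The libraries differed in yield. Lists ran to 3522, 1379 and 2536 peaks for lead replicates 1, 2 and 3 and to 1746, 2414 and 2157 for the controls. A peak shows enrichment by the antibody, and methylation at the site was not measured by another method here. Read depth is unknown, so a missing peak does not show that a site was unmethylated. No interval for counting error could be given either. Nothing in the labels tells whether replicates were separate pools of flies, and the p-values cover only variation among these 6 libraries, which could be technical.

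Across the 6 libraries the gene windows held 47 peaks, which merged into 14 regions where they overlapped. All 14 regions lay inside a gene span and none overlapped a second annotated gene. Coordinates are dm6, 1-based. Distances are given from the end of the gene with the lower coordinate, since strand and exons were not analysed here. Of the 14 regions, 3 were called in 1 library, 1 in 2, 3 in 3, 3 in 4, 3 in 5 and 1 in all 6. Over the 4538 merged regions of the series the shares were 35.5%, 16.4%, 11.1%, 8.55%, 8.81% and 19.6%. Each peak carries the authors' score, which was used only to place it within its own list. A score percentile of 80 means that about 80% of that list's peaks scored lower.

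**Figure D1:**
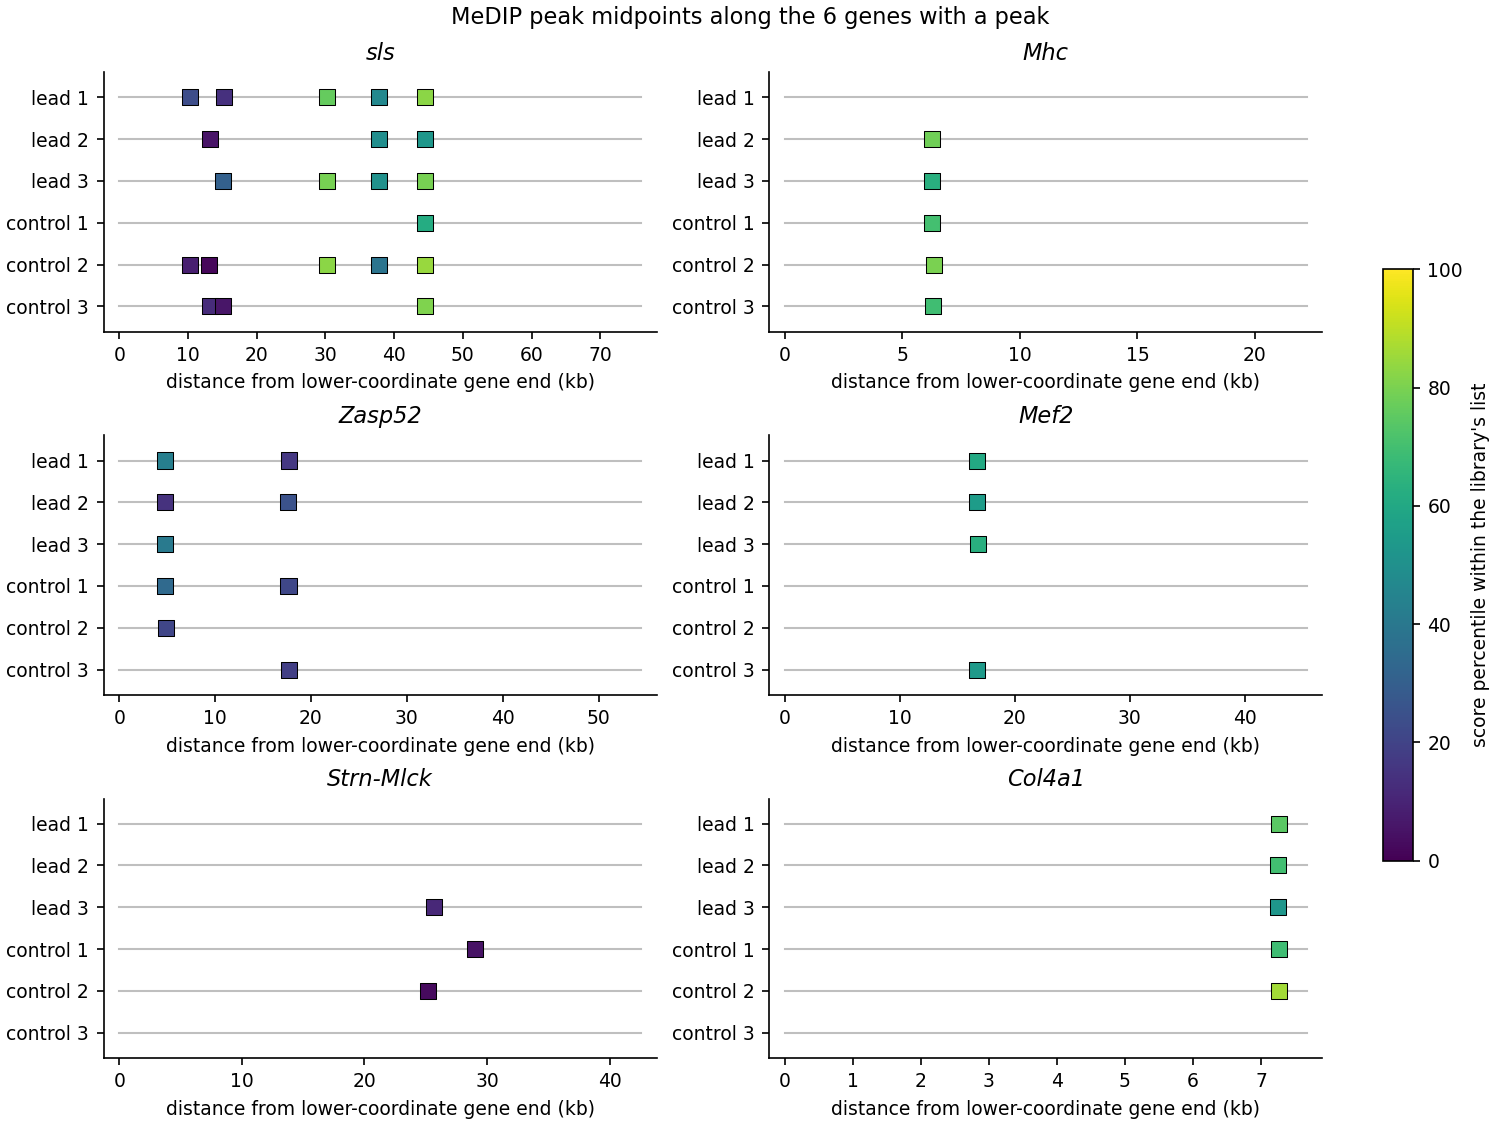
Position of each peak midpoint along the 6 genes with a peak, in kb from the lower-coordinate end of the gene (x axis), with 1 line per library and colour for the score percentile within that library's list. Libraries mostly placed their peaks at the same positions in Mhc, Mef2, Col4a1 and Zasp52, while sls carried 6 separate regions and Strn-Mlck 3 regions of 1 library each.

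Of the giant proteins, sls (chromosome 3L, 2039681 to 2115611, 75931 bp) carried the most regions. It encodes Sallimus, also called Kettin, the titin-like spring between the Z disc and the thick filament. Its window held 5, 3 and 4 peaks in lead replicates 1, 2 and 3, and 1, 5 and 3 in control replicates 1, 2 and 3. Control replicate 1 was the lowest and the groups overlapped.

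The sls region at 2083700 to 2084559, 44.4 kb from the lower end, was the only one of the 14 with a peak in all 6 libraries. Peak widths there were 799, 744 and 838 bp in lead and 745, 741 and 797 bp in control replicates 1, 2 and 3. Score percentiles were 82.8, 53.0 and 79.5 in lead and 61.4, 84.5 and 80.5 in control replicates. Lead replicate 2 and control replicate 1 had the lowest places, and the groups overlapped in width and in percentile. All 6 peaks were among the wider ones of their lists, from the 94.7th to the 96.6th width percentile. Only 1 other peak in the gene windows was 500 bp or wider, the 646 bp peak of lead replicate 1 in sls at 2054609 to 2055254.

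The next region of sls, at 2077321 to 2077597, was called in all lead libraries and in control replicate 2. Its score percentiles were 46.8, 49.1 and 50.3 in lead replicates 1, 2 and 3 and 38.5 in control replicate 2, so peaks in both groups stood near the middle of their lists or below. The region at 2069770 to 2070029 was called in lead replicates 1 and 3 and control replicate 2. There the score percentiles were higher, at 76.5, 79.5 and 82.7. It was therefore missing from the other 3 libraries although it ranked high wherever it was called.

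The last 3 regions of sls spanned 5.38 kb near the lower end, and all ranked low. The region at 2049879 to 2050156 was called in lead replicate 1 and control replicate 2, at percentiles 23.3 and 8.39. The region at 2052671 to 2052987 was called in lead replicate 2 and control replicates 2 and 3, at 5.11, 1.57 and 12.4. The region at 2054609 to 2055254 was called in lead replicates 1 and 3 and control replicate 3, at 13.8, 30.6 and 5.68. No library held all of them.

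Strn-Mlck (2R, 15946933 to 15989498, 42566 bp) encodes Stretchin-Mlck, a set of giant muscle proteins that includes a myosin light chain kinase. It was marked in lead replicate 3 and in control replicates 1 and 2, each time at a different place. The lead peak lay at 15972520 to 15972747 and ranked at the 11.0th score percentile. The control peaks lay at 15975821 to 15976094 (percentile 4.95) and 15972022 to 15972250 (2.46). No position in this gene was called in more than 1 library.

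Unc-89, listed in RefSeq as Obsc (2R, 23995543 to 24014254, 18712 bp), encodes the obscurin-like protein of the M line, where thick filaments are cross-linked. It had no peak in its span or within 1 kb. In 5 libraries the nearest peak was 4.67 to 4.70 kb from the gene, and in lead replicate 2 it was 147.6 kb away.

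Of the thick filament proteins, Mhc encodes the muscle myosin heavy chain and Prm encodes paramyosin, a core protein of the filament. Mhc (2L, 16766566 to 16788766, 22201 bp) had 1 region, at 16772678 to 16773156 and 6.35 kb from the lower end. It was called in lead replicates 2 and 3 and in all control libraries. Widths were 284 and 265 bp in lead replicates 2 and 3, and 271, 469 and 279 bp in control replicates 1, 2 and 3. Score percentiles were 78.2 and 63.2 in lead and 70.1, 80.0 and 69.3 in control replicates. The 5 peaks shared 231 bp and overlapped in rank between groups. Lead replicate 1, the library with the most peaks, had none here, and its nearest peak was 104.4 kb from the gene. Prm (3L, 8732858 to 8745310, 12453 bp) had no peak, and its nearest lay 20.9 to 47.0 kb away, depending on the library.

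Of the Z disc proteins, Zasp52 encodes a PDZ and LIM domain protein that binds alpha-actinin. Zasp52 (2R, 15762565 to 15817004, 54440 bp) was marked in all 6 libraries, but neither of its regions was. The region at 15767207 to 15767531 was called in all lead libraries and in control replicates 1 and 2. Its score percentiles were 42.8, 14.2 and 40.7 in lead replicates 1, 2 and 3, and 34.4 and 20.8 in control replicates 1 and 2. The region at 15780092 to 15780347 was called in lead replicates 1 and 2 and control replicates 1 and 3, at percentiles 16.2, 25.2, 21.1 and 18.6. All 9 peaks in Zasp52 therefore scored below the middle of their lists, and the groups overlapped in both regions.

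Mlp84B (3R, 7112850 to 7117732, 4883 bp), a muscle LIM protein of the Z disc, had no peak. Its nearest peak was 2.62 kb away in lead replicate 1 and 12.2 to 12.3 kb away in the other libraries. That 2.62 kb was the closest approach of any peak outside the windows to a member without a peak. Inside them, the peak region closest to a gene end was that of Col4a1.

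Mef2 encodes the MADS-box factor needed for muscle differentiation, and in the fly brain it also acts in mushroom body and clock neurons. Mef2 (2R, 9913496 to 9958858, 45363 bp) had 1 region, at 9930058 to 9930369 and 16.7 kb from the lower end. It was called in all lead libraries and in control replicate 3. Peak widths were 304, 219 and 224 bp in lead replicates 1, 2 and 3 and 218 bp in control replicate 3. Score percentiles were 60.2, 54.8 and 63.2 in lead replicates and 54.1 in control replicate 3. Control replicates 1 and 2 had no peak nearer than 82.6 kb. Mef2 was the only member whose lead and control libraries with a peak differed by 2. Over all genes, 0.618% were marked in at least 2 more lead than control libraries and 0.241% in at least 2 more control than lead libraries. In counts, these were 110 and 43 genes, against 2173 marked in at least 1 library. Most of the 17807 genes had no peak, so the low shares do not show that the pattern of Mef2 was rare. Such counts were not made within genes of 20 kb or longer, the class of Mef2. Without control replicate 3, Mef2 was marked in all lead and no control libraries. With equal numbers of peaks per library it was marked in 2 lead and 1 control libraries. With 3 libraries against 3, no single gene could reach a p under 0.1 by an exact two-sided test. Only a gene marked in all libraries of one group and no library of the other could reach 0.1. With all libraries kept, Mef2 was not such a gene.

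Of the collagen IV genes, Col4a1 (2L, 5029609 to 5037279, 7671 bp) encodes the alpha1 chain and had 1 region, at 5036738 to 5037003. This region lay 276 bp inside the upper end of the gene. It was called in all lead libraries and in control replicates 1 and 2. Widths were 238, 226 and 257 bp in lead replicates 1, 2 and 3 and 236 and 266 bp in control replicates 1 and 2. Score percentiles were 74.5, 69.7 and 52.4 in lead and 69.0 and 86.2 in control replicates. The 86.2 of control replicate 2 was the highest of the 47 peaks, and the groups overlapped. Control replicate 3 had no peak within 49.6 kb.

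The partner gene vkg (2L, 5012144 to 5028191, 16048 bp), which encodes the alpha2 chain and lies next to Col4a1, had no peak in any library. The nearest peak was that of Col4a1, 8.55 to 8.57 kb away in 5 libraries. In control replicate 3 it was 58.7 kb away.

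**Figure D2:**
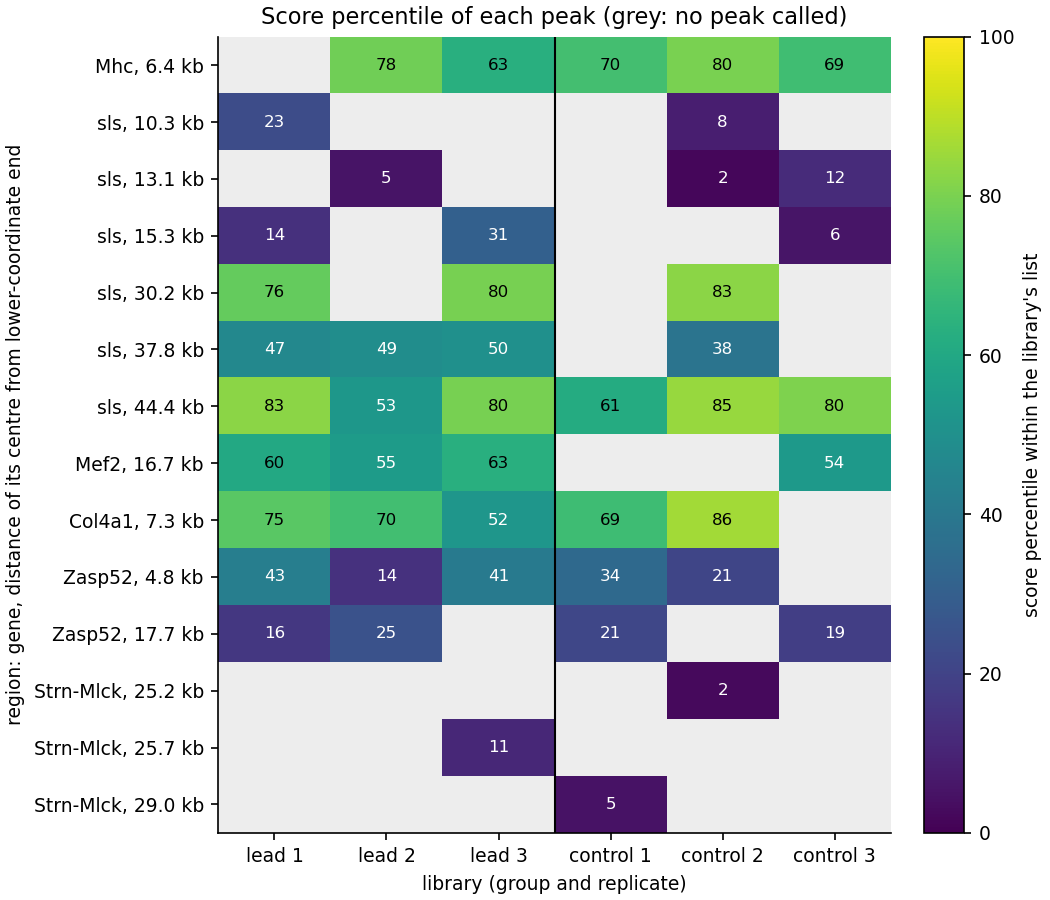
Score percentile of each peak within its own library's list, for the 14 regions (rows, with the distance of the region's centre from the lower-coordinate end of the gene) and the 6 libraries (columns); grey means that no peak was called. The sls region at 44.4 kb is the only row filled in all 6 libraries, and the Strn-Mlck rows hold 1 low peak each.

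Grouped by the number of libraries that called a region, the medians of the peaks' places differed. In the gene windows the median score percentile was 11.7 for the 14 peaks of regions with 1 to 3 libraries. It was 52.4 for the 27 peaks of regions with 4 or 5 libraries and 80.0 for the 6 peaks of the region with all 6. Over all peaks of the series the same medians were 29.6, 45.4 and 74.1. Single regions did not follow this order. The sls region at 2069770 to 2070029, with 3 libraries, had percentiles of 76.5 and above. The Zasp52 regions, with 5 and 4 libraries, had medians of 34.4 and 19.9.

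The comparison of lead with control asks whether peak calls at these genes differed between the groups. Lead libraries marked 4, 5 and 6 of the 10 genes in replicates 1, 2 and 3, and control libraries 5, 5 and 4. The groups overlapped. The mean was 5.00 ± 1.00 genes with lead and 4.67 ± 0.577 without (SD, n = 3 each). By exact two-sided permutation of the 6 libraries, p was 1. The difference of 0.333 genes was 0.667 with peaks scoring at least the median of all lists, 0.833 without lead replicate 1 and 0 without control replicate 3, and turned to -0.167 without lead replicate 3. The smallest p this test can give is 0.1.

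Lead windows held 9, 8 and 9 peaks and control windows 6, 9 and 6 in replicates 1, 2 and 3. Control replicate 2 reached the highest lead value, and the difference of 1.67 peaks did not pass (exact permutation p = 0.4, adjusted over 6 measures 0.6). It was 2.67 without control replicate 2. Peaks covered 3.15, 2.42 and 2.90 kb of the windows in lead and 1.98, 2.95 and 2.09 kb in control replicates. The groups overlapped here too, with a difference of 0.486 kb (exact permutation p = 0.3, adjusted 0.6), which was 0.790 kb without control replicate 2, 0.306 kb without control replicate 1 and 0.280 kb with peaks scoring at least the median of all lists.

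Set against each library's yield, the windows took 0.256%, 0.580% and 0.355% of the peaks in lead replicates 1, 2 and 3. In control replicates they took 0.344%, 0.373% and 0.278%. Lead replicate 2, the shortest list, had the highest share, and lead replicate 1, the longest, had the lowest. The difference of 0.0653 percentage points lay within the SD of 0.166 among lead libraries (exact permutation p = 0.8, adjusted 0.96). It turned to -0.0263 without lead replicate 2 and was 0.136 without lead replicate 1. With equal numbers of peaks it was 0.121, and with peaks scoring at least the median of all lists 0.103.

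**Figure D3:**
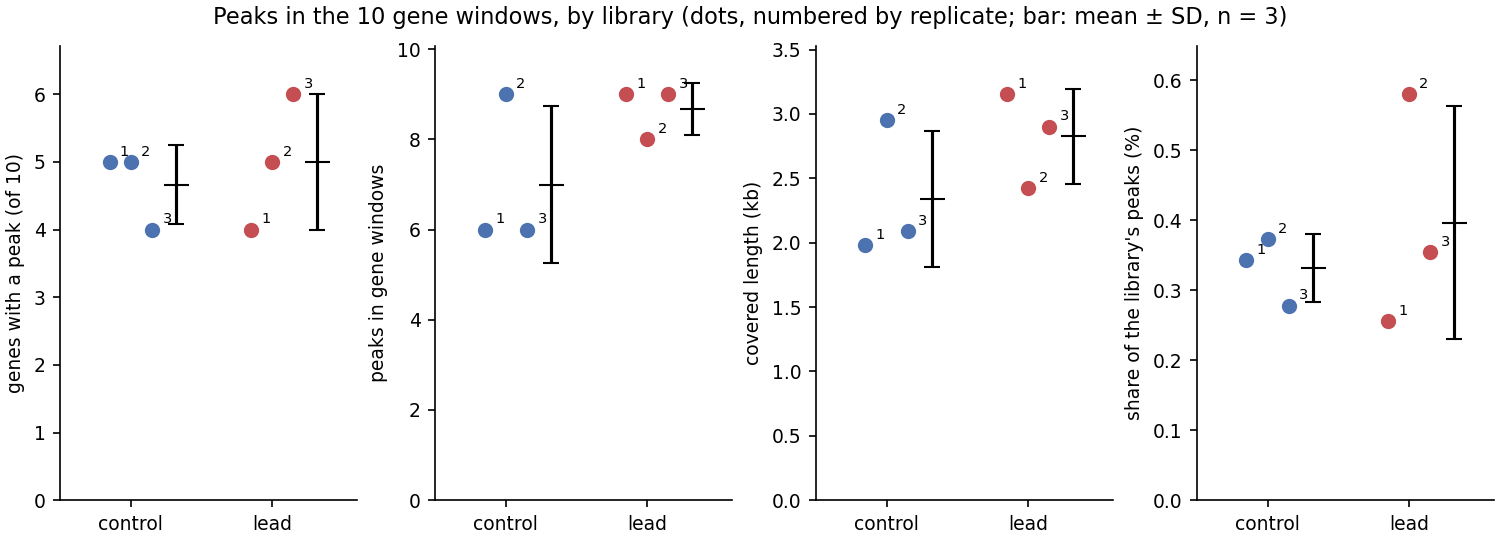
Genes with a peak (of 10), peaks in the gene windows, length covered by peaks (kb) and share of the library's peaks (%), with 1 dot per library numbered by replicate and the mean ± SD of each group (n = 3). Lead and control dots overlap in each of the 4 panels, and lead replicates 1 and 2 are the lowest and highest in the share of peaks.

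The median peak in the windows was 240, 236 and 259 bp wide in lead replicates 1, 2 and 3 and 253.5, 259 and 275 bp wide in control replicates. The groups overlapped, and the difference of -17.5 bp did not pass (exact permutation p = 0.3, adjusted 0.6). It was -53.5 bp with peaks scoring at least the median of all lists, -49.5 bp with equal numbers of peaks and -11.2 bp without control replicate 3. The median score percentile was 46.8, 51.1 and 52.4 in lead and 47.9, 38.5 and 36.4 in control replicates. Control replicate 1 lay inside the lead range, and the difference of 9.21 points did not pass (exact permutation p = 0.2, adjusted 0.6). It turned to -18.6 points with peaks scoring at least the median of all lists. With equal numbers of peaks it turned to -17.1 (exact permutation p = 0.1, the smallest possible). The groups were then barely apart, at 39.9, 51.05 and 32.3 in lead and 51.12, 71.4 and 52.0 in control replicates. These medians rested on 3, 8 and 6 peaks in lead and 5, 4 and 3 in control replicates. With 5 kb on either side of the genes lead was higher, by a difference of means of 12.8 points (exact permutation p = 0.1). There the groups were barely apart, at 42.76, 51.05 and 51.35 in lead and 34.36, 29.65 and 42.70 in control replicates. The direction of this difference therefore depended on which peaks were ranked.

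By region, 7 of the 14 were called in more lead than control libraries, 4 in more control than lead libraries and 3 in equal numbers. Over the 4538 merged regions the shares were 42.4%, 21.8% and 35.8%. None of the 14 was called in all libraries of one group and no library of the other. The same share over all merged regions was not counted, so this says nothing particular about the 14. By gene, Mef2 and Col4a1, of the 6 members with a peak, were marked in more lead than control libraries. Of all genes 4.34% were, or 773 of the 2173 with a peak in at least 1 library. Mhc and Strn-Mlck were marked in more control than lead libraries, as were 2.27% of all genes, or 405 of those 2173. Strn-Mlck was marked in no library with equal numbers of peaks or with peaks scoring at least the median of all lists.

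The members with a peak were mostly long genes. All 5 members of 20 kb or longer (sls, Zasp52, Mef2, Strn-Mlck and Mhc) were marked in at least 1 library, where 70.0% of the 1045 genes of that length were. Of these 5, sls and Zasp52 were marked in all 6 libraries, where 29.7% of such genes were. Of the 4 members between 5 and 20 kb only Col4a1 was marked, where 25.1% of 2568 genes were; none of the 4 was marked in all 6 libraries, and 6.07% of such genes were. Mlp84B, under 5 kb, was not marked, where 5.62% of genes in its class were marked in at least 1 library and 1.35% in all 6. These length classes were chosen after the values were seen.

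**Figure D4:**
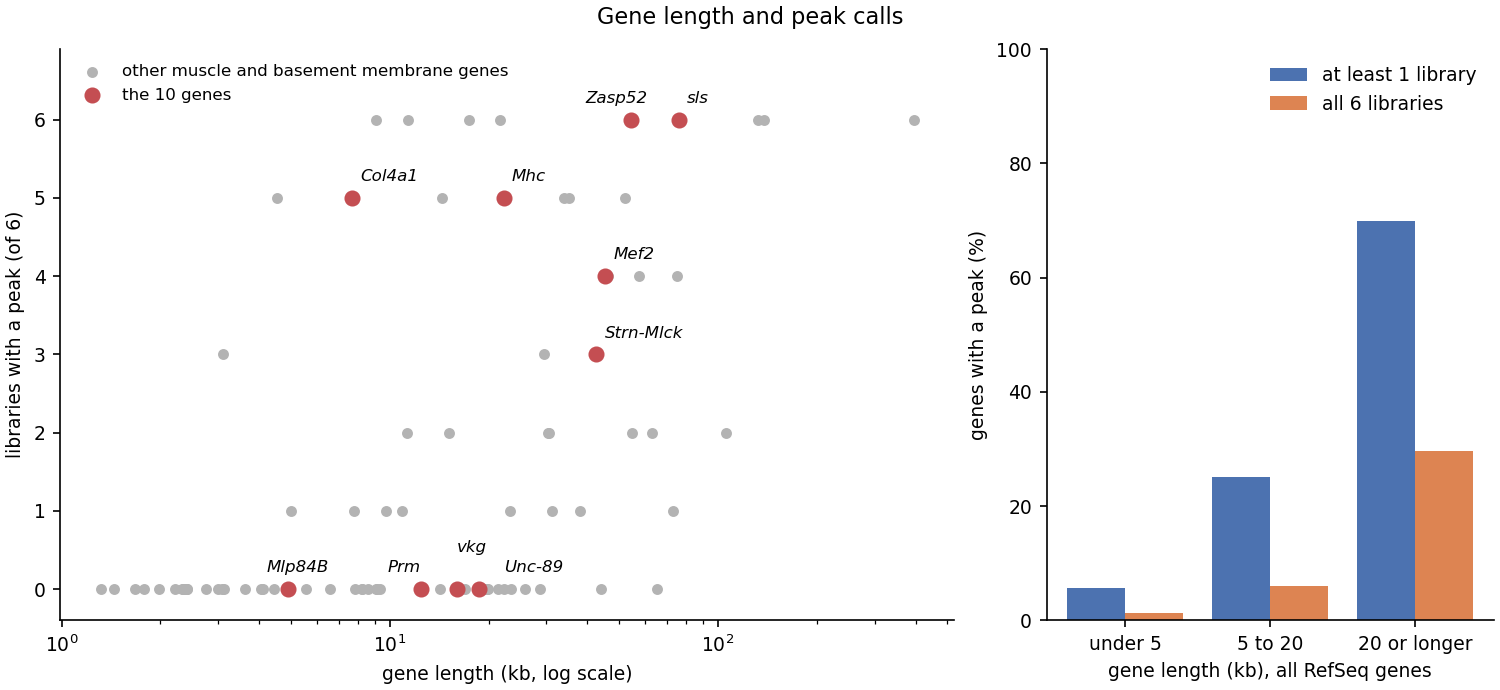
Left, number of libraries with a peak (of 6) against gene length in kb (log scale) for the 10 genes (red) and the other muscle and basement membrane genes (grey); right, percentage of all RefSeq genes with a peak in at least 1 library (blue) and in all 6 (orange) by length class. Of the 10 genes the 5 of 20 kb or longer all have a peak, and the share of all genes with a peak rises from 5.62% to 70.0% across the classes.

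Of 76 other genes of muscle and basement membrane, 32 were marked in at least 1 library (12.2% of all genes) and 7 in all 6 (3.69%). The median length of the 76 was 11.3 kb. Of those of 20 kb or longer 20 of 27 were marked, of those of 5 to 20 kb 10 of 26, and of the shorter ones 2 of 23. None was marked in 3 libraries of one group and 0 of the other, and none differed by 2 libraries or more. Over all genes, 0.0618% were marked in 3 lead and 0 control libraries and 0.00562% in the reverse. At least 2 more lead than control libraries marked 0.618% of all genes, and the reverse 0.241%. At shares this low, a count of 0 among 76 genes says nothing particular about them.

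The lists below differ in gene length, and over all genes the marked share rose from 5.62% under 5 kb to 70.0% at 20 kb or longer. Median lengths of the other genes were 7 kb for thick filament, 4.43 kb for thin filament and 16.5 kb for Z disc. They were 19.3 kb for muscle attachment, 19.9 kb for regulators and 17.1 kb for basement membrane. Differences between lists were not tested. Among thick filament genes 4 of 6 others were marked, and among thin filament genes 7 of 17. wupA, which encodes troponin I, was marked in all 6 libraries, with 3, 2 and 3 peaks in lead and 3, 3 and 3 in control replicates. up, which encodes troponin T, was marked in all 6, with 3, 1 and 1 peaks in lead and 1, 1 and 3 in control replicates. Both lie on X. Counts of both genes overlapped between the groups.

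Of 8 other Z disc genes 5 were marked. tn, which encodes the TRIM protein Thin, had 1 peak in each of the 6 libraries. Of 12 muscle attachment genes (integrins, talin and their partners) 3 were marked, none of them in all libraries.

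Of 17 other muscle regulators and fusion genes 9 were marked, and 3 of them in all 6 libraries. kirre, an adhesion protein of myoblast fusion, spans 394149 bp on X and held 18, 5 and 7 peaks in lead and 4, 7 and 7 in control replicates. bru1, a splicing regulator of flight muscle, held 6, 1 and 7 peaks in lead and 1, 3 and 2 in control replicates. hth, a homeodomain factor, held 4, 2 and 2 in lead and 3, 2 and 4 in control replicates. The groups overlapped for each of them, and lead replicate 1 had the highest count in kirre.

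Of 16 other basement membrane genes 4 were marked. Dg, which encodes the laminin receptor dystroglycan, was marked in all 6 libraries, with 3, 1 and 2 peaks in lead and 1, 2 and 1 in control replicates. The groups overlapped.

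Over all genes, 4.34% were marked in more lead than control libraries and 2.27% in the reverse. Those were 773 and 405 of the 2173 genes with a peak. Of the 76 genes, 32 of them with a peak, 12 were marked in more lead than control libraries and 3 in more control than lead libraries. Yield moved with this count: lead replicate 1 marked 29 of the 76 and lead replicate 2 marked 9, with control replicates at 12, 20 and 17. Of the 8 genes marked in a single library, 6 were marked in lead replicate 1 and 2 in lead replicate 3. Lead replicate 1 had the longest list, with 3522 peaks. The same split over all genes marked in a single library was not counted, so this says nothing particular about the 8. The part of yield in the count was not tested.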

How the data were processed

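Titles placed the 6 MeDIP-seq libraries in groups. The submitters' processing notes name cutadapt, Bowtie2 2.1.0 and dm6 but no peak caller or threshold. The deposited lists hold 1 set of peaks per library, called against that library's input. The deposited score of a peak is a whole number whose scale is not stated. Widths are in bp and coordinates 1-based. Repeated rows were dropped.

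Genes came from a RefSeq table of Release 6 (Unc-89 matched by synonym, the others by symbol). Differences of group means were tested by exact permutation (20 assignments, two-sided), with Benjamini-Hochberg adjustment over 6 measures. The genes and lists were chosen with earlier results of these data known. Of the other genes, those marked in all 6 libraries or differing by 2 or more libraries were named; Fermt1 was not matched. Alternatives were higher scores, equal numbers of peaks, other windows, peak midpoints, leaving out each library and a replicate block. Functions were tested on simulated peaks. Software was Python 3.11.15 with numpy 2.4.6, pandas 2.3.3, scipy 1.17.1 and, for figures, matplotlib 3.10.9.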

Additional observations from a re-analysis of the deposited data

How the results depend on the processing

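Depth is unknown, which limits every statement on a missing peak. Leaving out the flank, or placing peaks by midpoint, changed no difference or count. Neither setting could, since all 14 regions lay inside a gene span. With peaks scoring at least the median of 47, the difference in median score percentile turned from 9.21 to -18.6 points, and with equal numbers of peaks (1379) to -17.1 (exact permutation p = 0.3 and 0.1). With 5 kb on either side it was 12.8 points and the width difference -24.8 bp, both with an exact permutation p of 0.1, the smallest possible. With peaks scoring at least the median, and with equal numbers of peaks, 1 gene, sls, was marked in all 6 libraries in place of 2. Strn-Mlck was marked in none in these settings, where fewer peaks were used. With 5 kb on either side Unc-89 was marked in 2 lead and 3 control libraries and Mlp84B in 1 lead library. With 1 library left out at a time, the lead minus control differences lay between -0.167 and 0.833 genes, 1.17 and 2.67 peaks, 0.306 and 0.790 kb, -0.0263 and 0.136 percentage points, -24.5 and -11.2 bp, and 6.93 and 12.7 points of percentile. The number of genes marked in all lead and no control libraries ranged from 0 to 1, the reverse was 0, and the number marked in all libraries left ranged from 2 to 3. The labels do not say that replicate numbers pair samples, and deviations of equal numbers correlated at 0.0114, -0.0147 and -0.00577 over 4538 regions. A replicate block of 1 lead and 1 control library leaves the differences of means the same by arithmetic, so only p-values could change. The differences were 0.333 genes, 1.67 peaks, 0.486 kb, 0.0653 percentage points, -17.5 bp and 9.21 points. Exact sign-flip p-values with the block ranged from 0.25, the smallest possible, to 1.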

Other observations

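The peaks nearest to the members without a peak belonged to other genes, which were chosen here after their values were seen. Beside Unc-89, a peak in Rsph4a was called in all libraries but lead replicate 2. Beside Mlp84B, the nearest peaks lay in Alh in each library, and that of lead replicate 1 also overlapped lncRNA:CR45906. Beside Prm, the nearest peaks lay in Fhos, a formin that acts in assembly of muscle thin filaments, in each of the 6 libraries. They were at 20.9 kb in lead replicates 1 and 3 and between 46.1 and 47.0 kb in the others.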
